A study of Mus musculus with 12 samples.

Results

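The purine breakdown and salvage set was made up of 7 genes: Gda, Xdh, Nt5e, Ada, Adk, Aprt and Hprt. Its members were all probe sets that the platform annotation gave to exactly 1 of these symbols. That rule found 11 probe sets for the 7 genes, of 22626 probe sets tested and 12393 genes in all. Gda was put in the set because of its difference between quercetin and control diet in wild-type mice. Its values in that comparison, and in those that share its arrays, are therefore given as a description with no test. The exception is genotype averaged over diets, which uses the same arrays with weights orthogonal to that difference. The other genes were added for their place in the pathway, but with earlier results of these data known.

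Gene expression was measured in scrapings of the epithelial layer of the ileum, taken here as the last of 3 equal parts of the small intestine. There were 4 groups of 3 arrays: POR-null mice on the quercetin diet, POR-null mice on the control diet, wild-type mice on the quercetin diet and wild-type mice on the control diet. POR, the cytochrome P450 reductase, passes electrons to the microsomal P450 enzymes; the tissues in which it was deleted are not given in the labels. All mice were male, on the strain C57BL/6 and 6 to 8 weeks old. They were adapted for 14 days to a soya-free powdered diet. They then received that diet alone or with the plant flavonol quercetin at 6.2 g per kg, or 7 mg per mouse, for 24 h before sacrifice. Each array held RNA pooled from 3 mice. A pool is counted as 1 sample, so p-values measure the spread between pools, not between mice. Por itself is not analysed here, which leaves the genotype labels unchecked. Values are log2 expression levels, so a difference of 1 is a doubling, and a level is compared only within 1 probe set, never between genes.

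Cells break purines down by removing phosphate from nucleotides, deaminating the nucleosides and bases, and oxidising what is left to urate. Nt5e (CD73) sits on the outside of cells and releases adenosine from AMP, Ada converts adenosine to inosine, Gda converts guanine to xanthine, and Xdh oxidises hypoxanthine and xanthine to urate. Salvage runs the other way: Adk returns adenosine to AMP, Aprt does so for adenine, and Hprt returns hypoxanthine and guanine to nucleotides. The mouse small intestine is known for strong Ada and Xdh expression in villus enterocytes, with Ada highest toward the duodenum.

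The arrays were alike in scale, with medians between 5.91 and 5.96. On the first principal component, which held 19.7% of the variance, wild-type control replicate 2 lay at -25.57 and the other 11 arrays between -10.8 and 10.56. The tissue label was checked against defining genes. Vil1, a structural gene of the brush border, lay between 12.11 and 12.32 on every array, and Fabp6, the bile acid binding protein of the ileum, between 12.05 and 12.76. Not all ileal genes were as even. Slc10a2 ran from 5.22, in wild-type control replicate 2, to 7.52, and Fgf15 from 5.31 to 8.88. The remaining ileal genes, Cubn, Amn, Slc51a, Clec2h and Osr2, ranged less than these. A score of 11 measured genes of the proximal small intestine (the mean of the genes after centring each over the arrays, without members of the purine set) was 0.72 in wild-type control replicate 2, and 7 of the 11 genes had their highest level of the 12 arrays there. That array also had the highest enterocyte and villus tip scores of the 12, 0.35 and 0.34. Its crypt and proliferation score, -0.47, and its Paneth cell score, -0.85, were the lowest. The part of these scores in the results was not tested. In a scraping, fewer cells of a type and less RNA per cell cannot be told apart.

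None of the 6 genes other than Gda passed in any of the 7 comparisons fitted (limma over all 22626 probe sets, Benjamini-Hochberg threshold 0.05). Gda was tested only for quercetin in POR-null and for genotype averaged over diets, and passed in neither. Quercetin in wild type called 1 probe set, or 0.00442% of those tested. In the other 6 comparisons 0 probe sets were called, or 0%. At an unadjusted p under 0.05 the share of all probe sets was 10.9% for quercetin in wild type, 6.65% for quercetin in POR-null, 10.1% for genotype on control diet, 7.01% for genotype on quercetin 10.3% for the interaction, 7.44% for quercetin and 7.12% for genotype averaged. Within these limits the genes differed in how far they ranged. Ada, Nt5e and Gda spanned 2.28, 1.32 and 0.86 on the log2 scale over the 12 arrays. Adk spanned 0.61, Xdh 0.58, Aprt 0.32 and Hprt 0.24. The extremes of Gda lay in wild-type control and wild-type quercetin, the groups whose difference chose it, so its range is a description only.

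**Figure D1:**
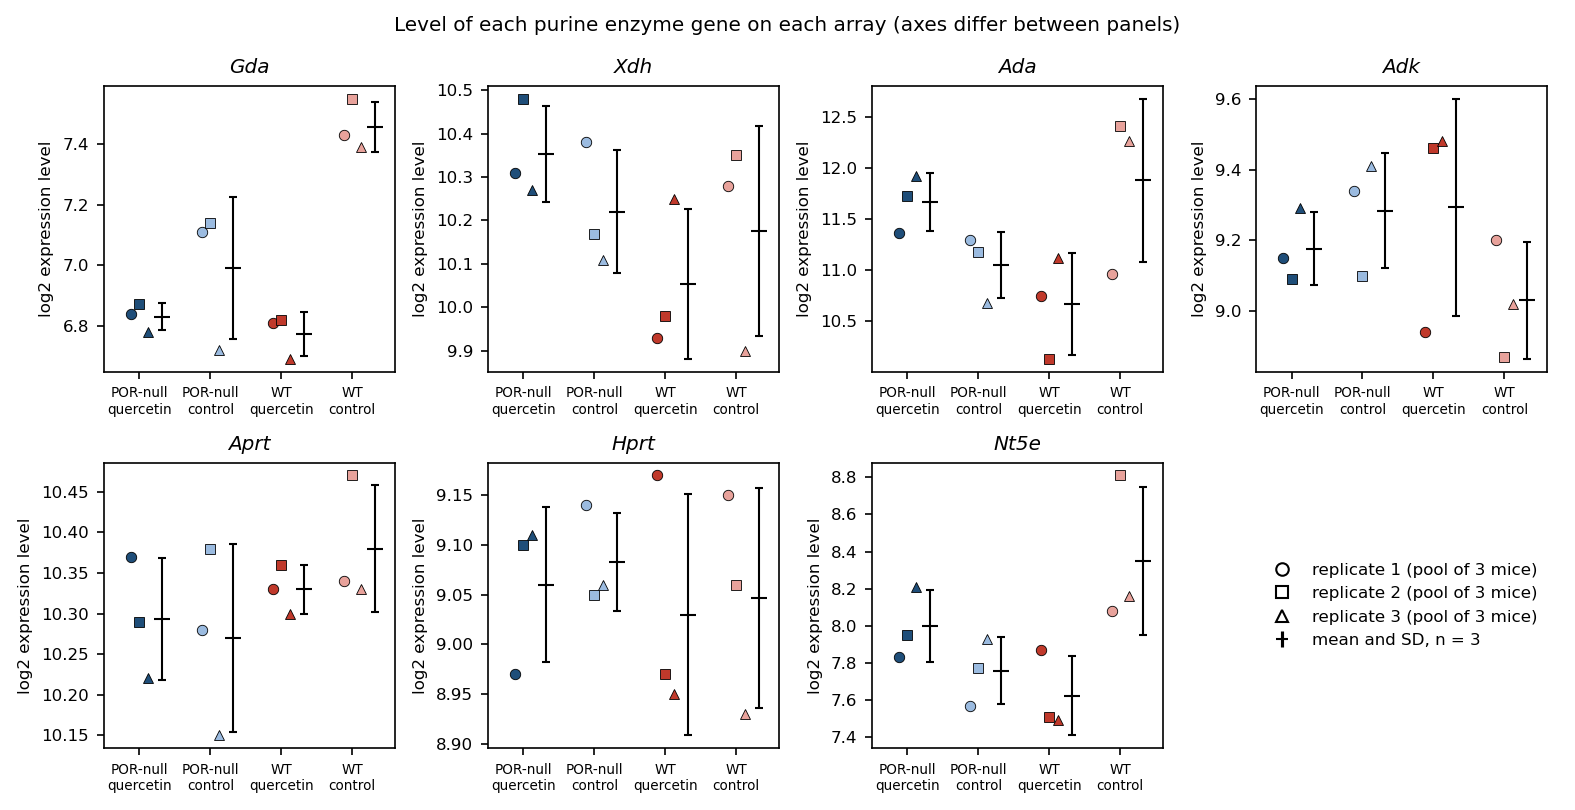
Log2 expression level (y axis, its range set per gene) of each of the 7 genes on each array, by group (x axis). Symbols are replicates 1 to 3, and the black mark and bar are the mean and SD of 3 pools. Gda and Nt5e have every wild-type control pool above every wild-type quercetin pool, while Hprt spans only 0.24 over all arrays.

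Gda (gene ID 14544; chr19:21391307-21472661 in GRCm38.p6) was measured by 1 probe set, of a type (_s_at) whose probes may match transcripts of more than 1 gene. Its levels were 6.84, 6.87 and 6.78 in POR-null quercetin pools, against 7.11, 7.14 and 6.72 in POR-null control pools. In wild type they were 6.81, 6.82 and 6.69 on quercetin, against 7.43, 7.55 and 7.39 on control. The 3 wild-type control pools thus stood above all 9 others, and the remaining groups overlapped. The order of the group means was wild-type control (7.46 ± 0.08), POR-null control (6.99 ± 0.23), POR-null quercetin (6.83 ± 0.05) and wild-type quercetin (6.77 ± 0.07; SD, n = 3 each).

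The value that chose Gda was its difference of -0.68 ± 0.10 (log2, SE) between quercetin and control in wild type, a level 0.623 times that of the control. In the POR-null arrays, which that choice did not use, the same diet gave -0.16 ± 0.10, and limma's adjusted p was 0.81 (95% confidence interval of the difference -0.38 to 0.06). POR-null control replicate 3, at 6.72, lay below all 3 POR-null quercetin pools, and without it the difference was -0.295. Leaving out control replicate 1 or 2 of that genotype instead gave -0.10 or -0.085, so each control pool moved the value by over 1.5 times. The genotype averaged over both diets, whose weights are orthogonal to the choice, gave -0.205 ± 0.071 (limma adjusted p = 0.55). Comparisons that share wild-type arrays with the choice gave -0.47 ± 0.10 for POR-null against wild type on control, 0.06 ± 0.10 on quercetin and 0.52 ± 0.14 for the interaction.

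The sequence before the start of Gda is shown with those of Ada and Nt5e, the members with the widest ranges, and of Hprt, the member with the smallest. Each run is the 250 bases before the annotated start, 5′ to 3′ on the gene's strand, from RefSeq on build GRCm38.p6; 6 of the 7 genes had an entry, and Xdh is named only. Capitals mark matches on either strand to the motif GATAA, which zinc finger factors of intestinal epithelium are known to bind, or to GCGTG, the core of the xenobiotic response element.
Gda, chr19:21472662-21472911, minus strand: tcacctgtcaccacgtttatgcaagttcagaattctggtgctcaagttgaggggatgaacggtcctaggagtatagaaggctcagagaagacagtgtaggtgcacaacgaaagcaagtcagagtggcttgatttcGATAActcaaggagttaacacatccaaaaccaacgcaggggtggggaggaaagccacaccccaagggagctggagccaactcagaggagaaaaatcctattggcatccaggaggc
Ada, chr2:163750240-163750489, minus strand: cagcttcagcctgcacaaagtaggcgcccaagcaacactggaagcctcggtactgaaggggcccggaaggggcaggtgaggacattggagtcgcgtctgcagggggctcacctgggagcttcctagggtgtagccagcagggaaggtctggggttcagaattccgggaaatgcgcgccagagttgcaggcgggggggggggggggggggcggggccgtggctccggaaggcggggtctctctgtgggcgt
Nt5e, chr9:88327359-88327608, plus strand: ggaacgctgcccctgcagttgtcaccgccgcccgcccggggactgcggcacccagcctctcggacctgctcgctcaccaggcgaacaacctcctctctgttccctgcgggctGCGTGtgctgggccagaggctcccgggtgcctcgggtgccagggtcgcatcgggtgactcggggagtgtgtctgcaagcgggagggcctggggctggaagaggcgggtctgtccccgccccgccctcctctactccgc
Hprt, chrX:52987828-52988077, plus strand: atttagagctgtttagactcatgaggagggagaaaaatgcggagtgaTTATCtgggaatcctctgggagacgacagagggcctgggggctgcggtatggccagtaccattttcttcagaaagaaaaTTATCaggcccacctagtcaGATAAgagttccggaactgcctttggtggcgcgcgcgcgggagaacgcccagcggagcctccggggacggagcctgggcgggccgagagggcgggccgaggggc

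GATAA stood once in the Gda run, at position -115 from the start, and 3 times in that of Hprt, and it was in 22.6% of all 32851 promoter runs of that length. GCGTG stood once in the Nt5e run, at position -138, and in 28.2% of all runs. TGACNNNGC, the core of the antioxidant response element, the E-box CACGTG and the core promoter motif TATAAA were in none of these 4 runs, and in 10.2%, 6.0% and 12.4% of all. Gda had 5 CpG dinucleotides and a GC content of 50%, against 14 and 67.2% in Ada, 21 and 72.0% in Nt5e, and 17 and 59.6% in Hprt. The median over all runs was 6 CpG and 52.4%. The capitals are letter matches only, and Gda, Ada and Nt5e shared none of the 5 motifs searched.

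Xdh (gene ID 22436; chr17:73883895-73950397), the next enzyme after Gda, was measured by 1 probe set. Levels were 10.31, 10.48 and 10.27 in POR-null quercetin pools and 10.38, 10.17 and 10.11 in POR-null control pools. Wild-type pools stood at 9.93, 9.98 and 10.25 on quercetin and at 10.28, 10.35 and 9.90 on control. On quercetin the POR-null pools all lay above the wild-type ones, the nearest at 10.27 against 10.25, and all other pairs of groups overlapped.

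That genotype difference of Xdh on quercetin was 0.30 ± 0.12 (limma adjusted p = 0.671; interval 0.04 to 0.56). Quercetin itself gave 0.13 ± 0.12 in POR-null (adjusted p = 0.872) and -0.12 ± 0.12 in wild type (adjusted p = 0.742). POR-null against wild type on control gave 0.04 ± 0.12, and the interaction 0.26 ± 0.17 (adjusted p = 0.605). Xdh thus did not repeat the order of Gda: wild-type control was the highest group for Gda and the next to lowest for Xdh.

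Nt5e (gene ID 23959; chr9:88327609-88372089) makes the extracellular adenosine that Ada and Adk then compete for. Its probe set read 7.83, 7.95 and 8.21 in POR-null quercetin pools and 7.57, 7.77 and 7.93 in POR-null control pools. In wild type it read 7.87, 7.51 and 7.49 on quercetin, against 8.08, 8.81 and 8.16 on control. Every wild-type control pool was above every wild-type quercetin and every POR-null control pool, and replicate 2 was the highest of the 12 arrays.

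Nt5e differed by -0.73 ± 0.17 on quercetin in wild type (limma adjusted p = 0.24; interval -1.1 to -0.35) and by 0.24 ± 0.17 in POR-null (adjusted p = 0.841). POR-null against wild type gave -0.59 ± 0.17 on control (adjusted p = 0.338) and 0.37 ± 0.17 on quercetin (adjusted p = 0.714). The difference between the diet effects was 0.97 ± 0.25 (interval 0.44 to 1.5). Its unadjusted p was 0.0016, and over all probe sets limma's adjusted p was 0.351. Without wild-type control replicate 2 the wild-type difference was -0.50, the interaction 0.74 and the genotype difference on control -0.36.

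Ada (gene ID 11486; chr2:163726571-163750239), which turns adenosine into inosine, varied most of the set. Its probe set read 11.36, 11.72 and 11.92 in POR-null quercetin pools, against 11.29, 11.18 and 10.68 in POR-null control pools. Wild-type quercetin pools were at 10.75, 10.13 and 11.12, and wild-type control pools at 10.96, 12.41 and 12.26. Quercetin pools were above control pools in POR-null without overlap. In wild type, control replicates 2 and 3 held the highest 2 levels of the 12 arrays, and control replicate 1 lay within the quercetin range.

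Ada differed by -1.21 ± 0.33 on quercetin in wild type (limma adjusted p = 0.269; interval -1.92 to -0.50), a level 0.432 times that of the control. In POR-null the difference was 0.62 ± 0.33 (adjusted p = 0.772; interval -0.09 to 1.32). POR-null against wild type gave 1.00 ± 0.33 on quercetin, again without overlap (adjusted p = 0.577), and -0.83 ± 0.33 on control (adjusted p = 0.435). The interaction was 1.83 ± 0.47 (interval 0.82 to 2.83), with an unadjusted p of 0.00161 and limma's adjusted p of 0.351.

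With any 1 array left out, the wild-type difference of Ada stayed between -1.668 and -0.942. Whether it passed the threshold turned on a single pool, wild-type control replicate 1. Without wild-type control replicate 1, limma passed Ada in wild type (-1.67, adjusted p = 0.041) and in the interaction (2.285, adjusted p = 0.042), and the genotype difference on control was -1.285. Without control replicates 2 and 3, a setting chosen after seeing the data that leaves 1 pool, the wild-type difference was -0.29 (adjusted p = 0.874) and the interaction 0.91 (adjusted p = 0.528). Over all settings of that wild-type difference, each array left out in turn included, adjusted p ran from 0.041 to 0.874.

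**Figure D2:**
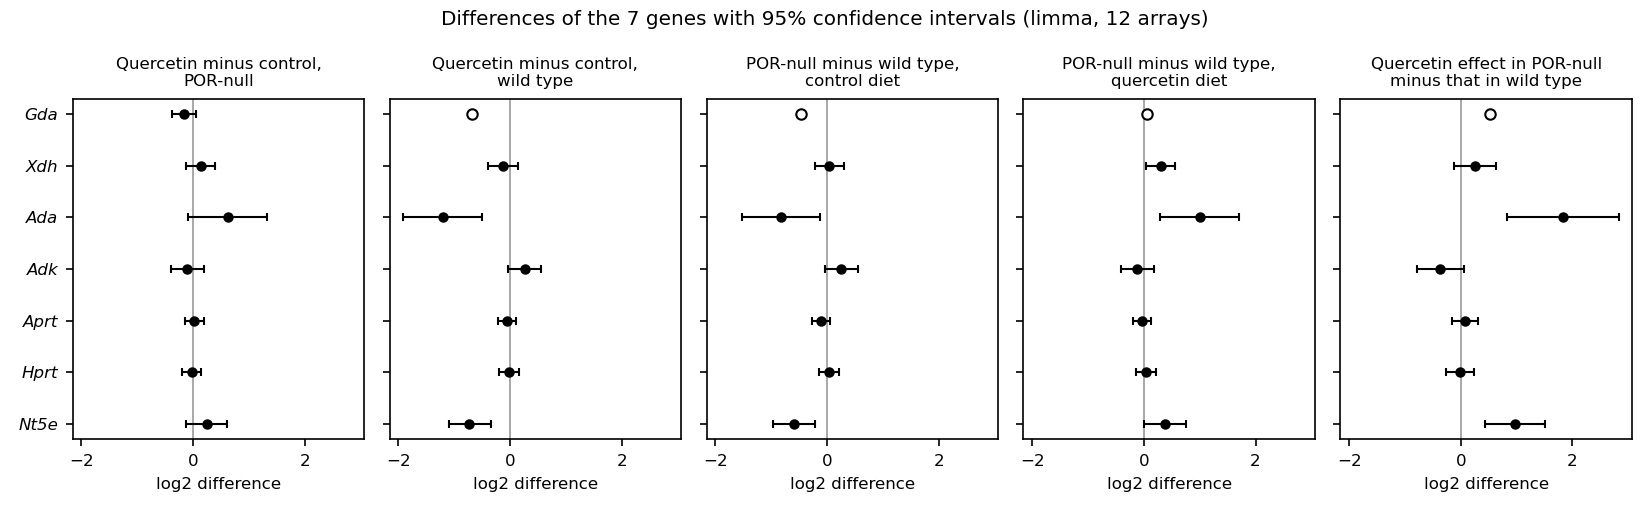
Log2 differences (x axis) of the 7 genes (rows) in 5 comparisons, with 95% confidence intervals from limma over 12 arrays. Open circles give Gda as values only, where the arrays are those that chose it; Ada and Nt5e lie below 0 for quercetin in wild type and above 0 in the interaction, and no tested value passed after adjustment.

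Adk (gene ID 11534; chr14:21052574-21448569), which returns adenosine to AMP, was read by 4 probe sets. The brightest, of a type (_x_at) whose probes may cross-hybridise, gave 9.15, 9.09 and 9.29 in POR-null quercetin pools and 9.34, 9.10 and 9.41 in POR-null control pools. It gave 8.94, 9.46 and 9.48 in wild-type quercetin pools, against 9.20, 8.87 and 9.02 in wild-type control pools. All groups overlapped, and wild-type control, the highest group for Ada, Nt5e and Gda, was the lowest here (9.03 ± 0.17, SD, n = 3).

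Differences of Adk were 0.26 ± 0.14 on quercetin in wild type (limma adjusted p = 0.507), -0.11 ± 0.14 in POR-null (adjusted p = 0.92) and -0.37 ± 0.19 in the interaction (adjusted p = 0.522). The wild-type value was 0.44 without wild-type quercetin replicate 1, 0.17 without replicate 3 and 0.113 with the 4 probe sets averaged. The second brightest gave 0.25 ± 0.12, -0.17 ± 0.12 and -0.42 ± 0.16. The 2 dimmest, with means of 5.14 and 3.61, gave 0.01 and -0.07 in wild type, and 0.01 and 0.14 in the interaction. The probe sets of Adk therefore fell into pairs, and the lower pair did not carry the values of the upper one. The lower pair lay at the 32.8 and 6.6 percentiles of mean level among all probe sets. At such levels a difference can be missed, so its values, and the average that includes them, do not decide between the pairs.

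Aprt (gene ID 11821; chr8:122574637-122576907) salvages adenine. Its brighter probe set read 10.37, 10.29 and 10.22 in POR-null quercetin pools and 10.28, 10.38 and 10.15 in POR-null control pools. Wild-type pools read 10.33, 10.36 and 10.30 on quercetin and 10.34, 10.47 and 10.33 on control, so all groups overlapped. Its differences lay between -0.11 (POR-null against wild type on control; interval -0.27 to 0.05) and 0.07 (the interaction), and limma's adjusted p was 0.638 or more in each. The other probe set gave values between -0.11 and 0.11.

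Hprt (gene ID 15452; chrX:52988078-53021660) salvages hypoxanthine and guanine and is often used as a reference gene. Its probe set read 8.97, 9.10 and 9.11 in POR-null quercetin pools, 9.14, 9.05 and 9.06 in POR-null control pools, 9.17, 8.97 and 8.95 in wild-type quercetin pools and 9.15, 9.06 and 8.93 in wild-type control pools. All groups overlapped. Quercetin gave -0.02 ± 0.08 in POR-null (interval -0.20 to 0.15) and -0.02 ± 0.08 in wild type (interval -0.19 to 0.16), so the data allow differences of up to about these bounds. Limma's adjusted p was 0.899 or more in every pairwise comparison and the interaction.

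Counted over the 7 genes, with 1 probe set each, quercetin pools lay wholly below control pools in wild type for 2 genes, Gda and Nt5e, against 8.08% of all probe sets, and for 0 wholly above, against 5.33%. Gda is the gene chosen on that comparison. In POR-null, Ada alone lay wholly above, against 7.45%, and no member wholly below, against 5.11%. POR-null pools lay wholly below wild type on control for Gda and Nt5e (8.71% of all, and 5.15% wholly above), which shares the wild-type control arrays with the wild-type diet comparison. On quercetin they lay wholly above for Ada and Xdh (7.28% of all, and 5% wholly below).

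The proximal small intestine score ran from 0.01 to 0.19 in POR-null quercetin pools, against -0.22 to -0.13 in POR-null control pools. In wild type it ran from -0.37 to 0.23 on quercetin, against -0.09 to 0.72 on control. Of its 11 genes, 9 had a lower mean on quercetin in wild type and 8 a higher mean on quercetin in POR-null, as Ada and Nt5e did. The lowest level of Ada, in wild-type quercetin replicate 2, coincided with the lowest proximal score. Wild-type control replicates 1 and 3 scored -0.01 and -0.09. On these arrays Gda stood at 7.43 and 7.39, Nt5e at 8.08 and 8.16, and Ada at 10.96 and 12.26. The part of this score in the results was not tested.

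Other tissue scores were set beside the same pools. The score of 8 ileal genes ran from -0.22 to -0.03 in POR-null quercetin pools and -0.17 to 0.24 in POR-null control pools, and from -0.02 to 0.26 in wild-type quercetin pools and -0.23 to 0.03 in wild-type control pools. Smooth muscle and stroma genes (11) scored 0.13 to 0.52 and -0.43 to 0.84 in POR-null quercetin and control pools, and -0.54 to 0.29 and -0.64 to -0.18 in wild-type quercetin and control pools. Lymphocytes can carry Nt5e, and their part in its level was not tested. The 8 T cell and intraepithelial lymphocyte genes scored -0.15 to 0.35 in POR-null quercetin pools and -0.2 to 0.18 in POR-null control pools. They scored -0.2 to 0.25 in wild-type quercetin pools and -0.35 to -0.01 in wild-type control pools. Goblet cell genes (4) scored -0.07 to 0.13 and -0.16 to -0.02 in POR-null quercetin and control pools, and -0.18 to 0.06 and 0.07 to 0.14 in wild-type quercetin and control pools. Wild-type control thus stood above wild-type quercetin and POR-null control, as it did for Gda and Nt5e. B and plasma cell genes (6) scored 0.19 to 0.49 in wild-type quercetin pools, against -0.48 to 0.1 in wild-type control pools, and all 6 had a higher mean on quercetin.

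In POR-null, where Ada did not overlap between diets, further scores did not overlap either. The scores are not all separate. Apoa4 counts in both the enterocyte and the villus tip score, and Lct in both the enterocyte and the proximal score. In POR-null both genes were themselves higher on quercetin without overlap. Enterocyte genes (7) scored -0.02 to 0.12 on quercetin, against -0.19 to -0.06 on control. Villus tip genes (4) scored 0.02 to 0.05 on quercetin, against -0.18 to -0.09 on control, and Paneth cell genes (3) 0.2 to 0.68, against -0.33 to 0.15. Endothelial genes (4) scored 0.01 to 0.05 on quercetin, against -0.1 to -0.03 on control. The part of any of these scores in the results was not tested.

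**Figure D3:**
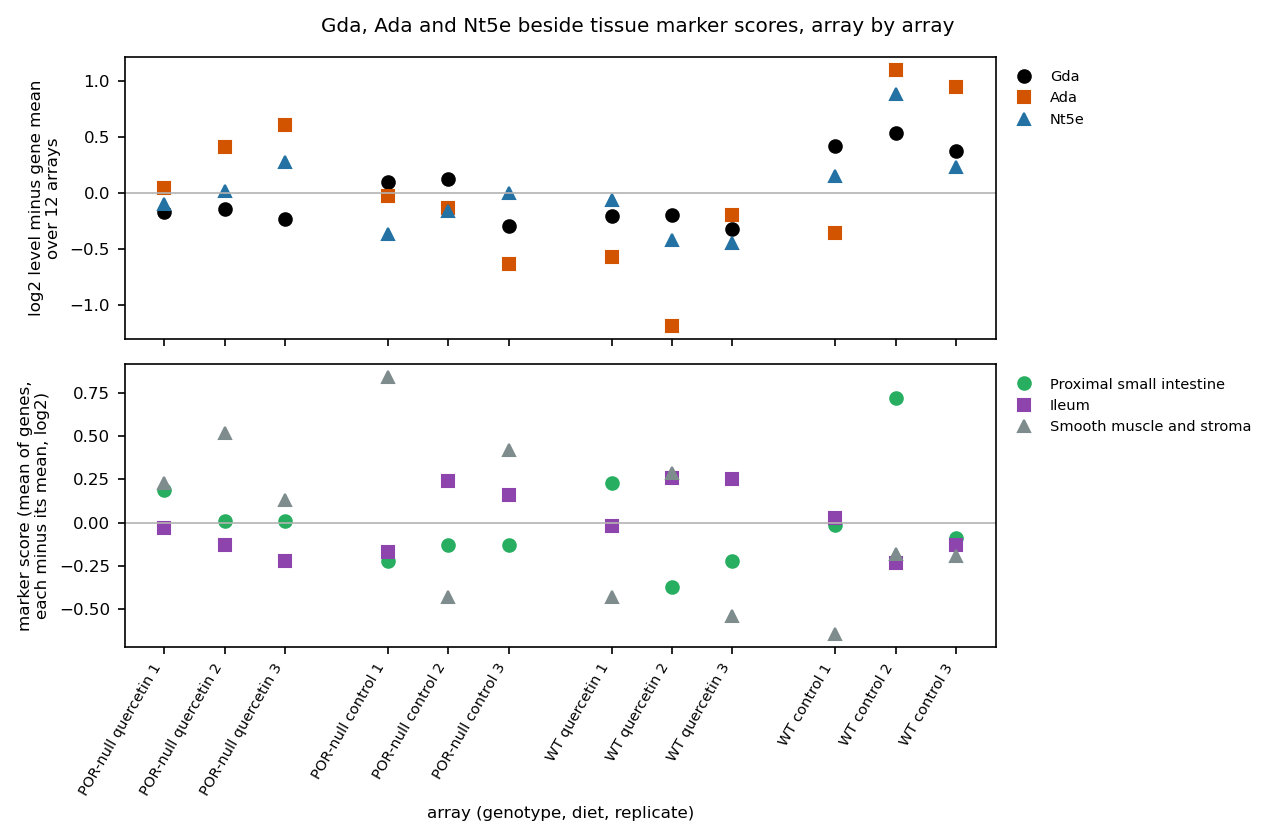
Upper panel: log2 level of Gda, Ada and Nt5e on each of the 12 arrays (x axis), less each gene's mean. Lower panel: marker scores of the proximal small intestine, the ileum and smooth muscle and stroma on the same arrays; wild-type control replicate 2 has the highest proximal score, 0.72, and the highest Gda, Ada and Nt5e.

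Whether the 7 genes moved together over the pools was asked with Pearson's r for all 21 pairs (n = 12 arrays). Pairs with Gda are described without a test, since they use the arrays that chose it. With 1 probe set a gene, none of the 15 other pairs passed at an adjusted p of 0.05 by permutation, for r or for Spearman's rho. The adjustment ran over all 21. The largest values were 0.72 for Ada with Nt5e (rho 0.62; permutation p = 0.00637 and 0.0353, adjusted 0.113 and 0.229) and -0.68 for Adk with Nt5e (rho -0.62; permutation p = 0.0108 and 0.0343, adjusted 0.113 and 0.229). Without the 2 arrays farthest from the median of the first gene of each pair they were 0.46 and -0.40. Leaving out the extremes of a gene narrows its range, which can lower r by itself. Whether both values depended on those arrays is thus not decided. Taken as deviations from group means, Ada with Nt5e had r = 0.40 (exact permutation within groups, p = 0.484). With all probe sets of a gene averaged, Ada with Nt5e (r = 0.724), Ada with Adk (-0.762) and Adk with Aprt (-0.747) passed. The adjusted permutation p was 0.0446 for each.

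Gda had r = 0.62 with Nt5e, 0.60 with Aprt, 0.52 with Ada and -0.58 with Adk. Without the 2 arrays farthest from the median of Gda, wild-type control replicates 1 and 2, these were 0.236, 0.381, 0.516 and -0.48 in the same order of genes. As deviations from group means, Gda with Nt5e was at -0.01, so no likeness was left within groups. Gda with Aprt was at 0.84 within groups, the highest such value of the 21 pairs. That value used the brighter Aprt probe set only, and the other was not tried within groups. With the Aprt probe sets averaged, r over all arrays was 0.518, against 0.60. POR-null control replicate 3 had the lowest level of its group for both genes, 6.72 for Gda and 10.15 for Aprt. Gda with Xdh, its neighbour in the pathway, was at 0.075 over all arrays.

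**Figure D4:**
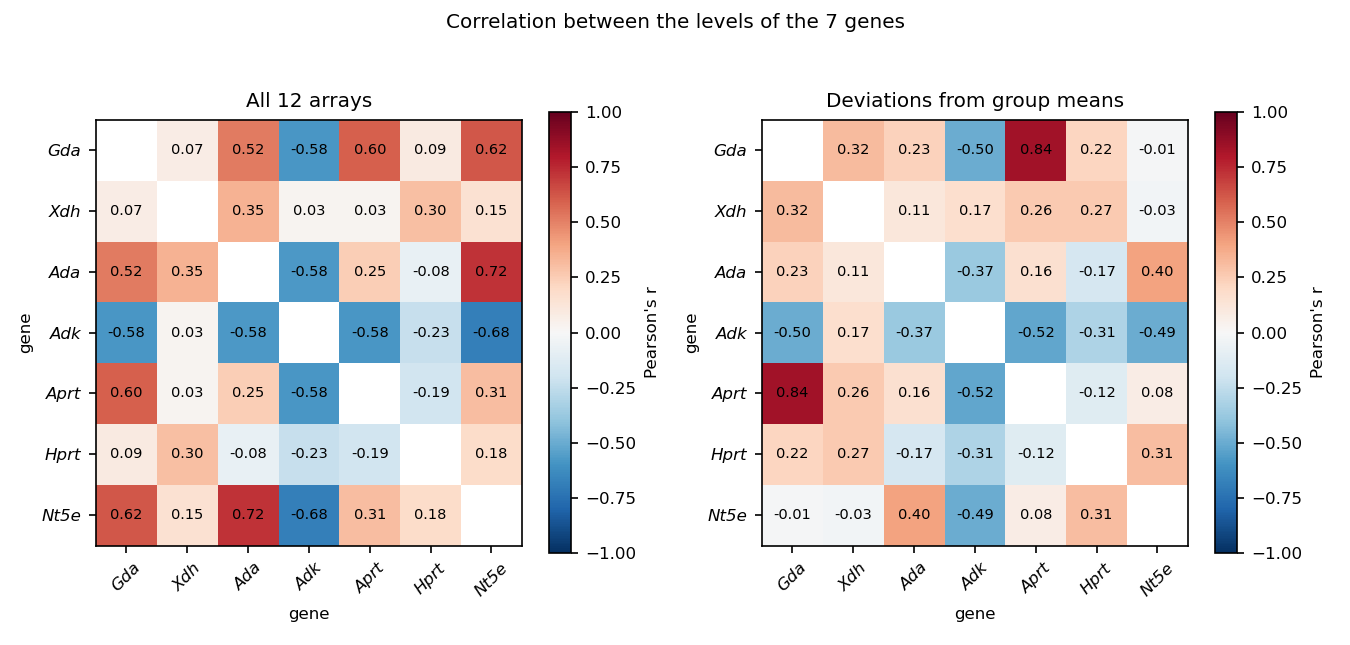
Pearson's r between each pair of the 7 genes (rows and columns) over all 12 arrays, left, and over deviations from the 4 group means, right; colour runs from -1 (blue) to 1 (red). Ada with Nt5e is highest on the left (0.72) and Gda with Aprt on the right (0.84, with the brighter Aprt probe set only). With 1 probe set a gene, as shown, none of the 15 pairs without Gda passed after adjustment.

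Among 7310 genes with a mean level above the median of all probe sets, those most like Gda over the 12 arrays were Maff (r = 0.92, rho = 0.79), Zdhhc14 (0.90 and 0.88), Agpat1 (0.87 and 0.74), Trim15 (0.87 and 0.82) and S100a14 (0.87 and 0.83). Maff, a small Maf transcription factor gene, averaged 6.41 and 6.64 on quercetin and control in POR-null, and 6.41 and 6.88 in wild type; wild-type control was its highest group, as for Gda. The most opposite were Rpl37a (r = -0.92), Gas5 (-0.91) and Eef1b2 (-0.89). Among the members, Nt5e ranked 298 of these genes by likeness to Gda, and Aprt 348. Likeness is a description, since the genes were picked as the extremes and the arrays share their groups.

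For the other members the nearest genes were Edn3 (r = 0.81) for Xdh, Tnfrsf21 (0.89) for Ada, Acy3 (0.92) for Nt5e, Ppp1r18 (0.91) for Adk, Mien1 (0.86) for Aprt and Mri1 (0.85) for Hprt. Edn3, the endothelin 3 gene, averaged 7.99 and 7.75 in POR-null quercetin and control pools, and 7.38 and 7.58 in wild-type quercetin and control pools. Acy3, an aminoacylase gene, averaged 6.88 and 6.85 in POR-null quercetin and control, and 6.77 and 7.09 in wild-type quercetin and control. Ada ranked 108 by likeness to Nt5e, and Nt5e 61 by likeness to Ada.

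The wider purine pathway was described by 5 lists, and 0 of their measured genes passed in any comparison (limma, over all probe sets). Beyond the members, 17 breakdown and salvage genes were measured. Of these 3 were higher and 14 lower on quercetin in wild type, with a median of -0.07, against -0.023 over all probe sets. In POR-null 10 were higher and 7 lower (0.03, against 0.013). The background for all 5 lists leaned too: 9577 probe sets were higher and 12947 lower in wild type, and 12395 higher and 10082 lower in POR-null. At an unadjusted p under 0.05, 17.6% of the 17 genes (3 genes) stood out in wild type, against 10.9% of all, and 5.9% (1 gene) in POR-null, against 6.65% of all. These shares were 27.3% and 18.2% for synthesis de novo and 12.5% and 6.2% for extracellular nucleotide genes. They were 9.1% and 0% for transporters, and 20% and 0% for cofactor genes.

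In that list, Ahcy, which splits S-adenosylhomocysteine into adenosine and homocysteine, had 8.86, 9.08 and 8.98 in POR-null quercetin pools and 8.87, 8.93 and 8.97 in POR-null control pools. In wild type it had 9.12, 9.05 and 9.00 on quercetin, against 8.91, 8.65 and 8.64 on control, without overlap. That difference was 0.32 ± 0.09 (limma adjusted p = 0.269). Ampd3, an AMP deaminase gene, differed by -0.36 ± 0.14 on quercetin in wild type (adjusted p = 0.367) and -0.25 ± 0.14 in POR-null (adjusted p = 0.78). Uox, which oxidises urate further in mice, gave -0.29 ± 0.11 in wild type (adjusted p = 0.367) and 0.15 ± 0.11 in POR-null (adjusted p = 0.84). For Ahcyl1 the POR-null difference on control was -0.25 ± 0.09 (adjusted p = 0.397).

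Of 11 genes of purine synthesis de novo, 6 were higher and 5 lower on quercetin in wild type (median 0.003) and 9 higher and 2 lower in POR-null (median 0.05). Paics, which catalyses middle steps of the route, read 6.92, 7.08 and 7.17 in POR-null quercetin pools and 7.14, 7.11 and 7.12 in POR-null control pools. It read 7.16, 7.26 and 7.12 in wild-type quercetin pools, all above the 6.94, 6.81 and 6.92 of wild-type control pools. The wild-type difference was 0.29 ± 0.08 (limma adjusted p = 0.269) and the interaction -0.36 ± 0.11 (adjusted p = 0.373). Prps2, which makes the ribose phosphate donor, gave 0.34 ± 0.11 in the interaction (adjusted p = 0.401). Adssl1 gave 0.27 ± 0.11 there (adjusted p = 0.446), and Adsl 0.33 ± 0.15 on quercetin in POR-null (adjusted p = 0.743).

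Extracellular nucleotide and nucleotidase genes numbered 16, of which 4 were higher and 12 lower on quercetin in wild type (median -0.06), and 11 higher and 5 lower in POR-null (median 0.07). Enpp3, which cleaves extracellular nucleotides upstream of Nt5e, read 7.35, 6.94 and 7.36 in POR-null quercetin pools and 6.77, 7.09 and 6.63 in POR-null control pools. It read 7.35, 6.78 and 6.86 in wild-type quercetin pools, against 7.21, 9.49 and 7.65 in wild-type control pools. The highest level was that of wild-type control replicate 2, the array with the highest proximal score. Its wild-type difference was -1.12 ± 0.41 (limma adjusted p = 0.357). Nt5c gave 0.20 ± 0.08 in wild type (adjusted p = 0.371), Akp3 0.37 ± 0.15 on quercetin in POR-null (adjusted p = 0.72) and Entpd7 -0.66 ± 0.26 for POR-null on control (adjusted p = 0.433).

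Among 11 transporters of nucleosides and urate, 3 were higher and 8 lower on quercetin in wild type (median -0.013) and 6 higher and 5 lower in POR-null (median 0.027). Abcg2, an efflux pump known to carry urate and flavonoid conjugates, stood at 10.90, 10.82 and 10.74 in POR-null control pools, against 10.56, 10.39 and 10.47 in wild-type control pools. That difference was 0.35 ± 0.08 (limma adjusted p = 0.283), and quercetin gave -0.02 ± 0.08 in POR-null and 0.20 ± 0.08 in wild type. On control diet POR-null differed from wild type by -0.26 ± 0.09 for Slc17a3 (adjusted p = 0.371) and by 0.18 ± 0.08 for the nucleoside transporter Slc29a1 (adjusted p = 0.444). Slc22a12, a urate transporter, gave 0.16 ± 0.09 in the interaction (adjusted p = 0.552).

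Xdh needs a molybdenum cofactor, and 5 genes of its synthesis and use were measured, 3 higher and 2 lower on quercetin in wild type (median 0.13) and 4 higher and 1 lower in POR-null (median 0.05). Gphn, which inserts the metal, gave 0.25 ± 0.11 in wild type (limma adjusted p = 0.423), Suox, sulfite oxidase, -0.47 ± 0.18 in the interaction (adjusted p = 0.439), Mocos, which activates Xdh with sulfur, -0.17 ± 0.10 in wild type (adjusted p = 0.551) and Mocs2 0.14 ± 0.09 in POR-null (adjusted p = 0.833). None of these differences passed.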

How the data were processed

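RNA pools of 3 mice were hybridised to Affymetrix 430A arrays, per the labels. The authors deposited log2 expression levels, which were taken as they stand. MAS5 and RMA appear in the submitters' processing notes; what each did is not given in the sources used here. Arrays have no read depth, and 3 arrays a group limit precision. Leaving out 64 array controls gave 22626 probe sets for testing. The platform annotation named 1 gene for 20380 of them. Where several probe sets named a gene, the brightest on average stood for it.

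Group means were estimated with limma 3.58.1 (R 4.3.3; lmFit and eBayes), which was tested on simulated data, and Benjamini-Hochberg adjustment ran over all probe sets. Correlations used 100000 permutations, or all 1296 within groups. All 7 members are named, and from each wider list up to 4 genes with the smallest p. Members and lists were chosen with earlier results of these data known. Alternatives were other scalings, filters on dim probe sets, trend and robust eBayes, array weights, a replicate block, fits to single pairs of groups, averaged probe sets, other thresholds and each array left out.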

Additional observations from a re-analysis of the deposited data

How the results depend on the processing

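The 44 tested member results gave 949 values under alternatives, of which 947 stayed on their side of the threshold and 901 kept their sign. Of the 48 sign changes, 46 were of values within 1 SE of 0. The 5 values of Gda with no test kept their sign, and no side of the threshold is read for them. Ada passed without wild-type control replicate 1, in wild type (-1.668) and in the interaction (2.285). Without both wild-type control arrays 2 and 3, chosen after seeing the data, Ada reversed to 0.09 for genotype on control diet and 0.162 for quercetin averaged. Gda moved to -0.332 for genotype on control and 0.388 for the interaction without POR-null control replicate 3.

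Counts of called probe sets, over all 22626, were small and unstable. Quercetin in wild type called 1, but 7 without probe sets under the lower quartile, 7 with trend and robust eBayes, 5 with the replicate block, 2 in the fit to its own arrays, 13 at an adjusted p under 0.1 and 0 without wild-type control arrays 2 and 3. The other comparisons called 0. Trend and robust eBayes called 1 for genotype on control, 5 for genotype on quercetin, 2 for the interaction, 1 for quercetin averaged and 4 for genotype averaged. The replicate block called 2 for genotype on quercetin, 3 for the interaction and 2 for genotype averaged. Genotype on quercetin called 2 in its own arrays and 3 without wild-type control arrays 2 and 3. At an adjusted p under 0.1, 2 were called for the interaction, 2 for quercetin averaged and 2 for genotype averaged. Quercetin averaged called 2 after median centring, 1 without probe sets under the lower quartile and 1 with array weights, which called 4 for genotype averaged.

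Leaving out each array gave 1 to 59 calls for quercetin in wild type, 0 to 15 for genotype on control, 0 to 1 for genotype on quercetin, 0 to 9 for the interaction, 0 to 1 for quercetin averaged and 0 to 6 for genotype averaged. The counts of 59, 15 and 9 came without wild-type control replicate 1, and that of 6 without wild-type control replicate 2. With probe sets averaged per gene, 3 of the 21 member pairs passed, none with Gda, against 0. They were Ada with Nt5e, Ada with Adk and Adk with Aprt. Ada and Nt5e have 1 probe set each, so their r of 0.724 was unchanged. For that pair only the adjustment over the 21 pairs differed. The cause was not tested for any of the other changes. In the diet and genotype comparisons, deviations of same-numbered arrays correlated between -0.104 and 0.162, highest between the genotypes on quercetin. Such small values over all probe sets cannot exclude a structure shared by same-numbered arrays. The replicate block brought none of the 6 members other than Gda past the threshold.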
